A study of Mus musculus with 12 samples.

Results

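The 10 genes described here encode enzymes that crosslink collagen, enzymes that hydroxylate it, and a chaperone that folds it: Lox, Loxl1, Loxl2, Loxl3, Loxl4, Plod1, Plod2, P4ha1, P4ha3 and Serpinh1. They were chosen by name, as the rows of the count table that carry these symbols, and are 10 of 56748 genes in the table. The choice was made with earlier results of these data known. All 10 were among the 15742 genes that passed the filter on low counts. RNA came from the left ventricle of 12 wild-type C57BL/6J mice, 1 library per mouse and 4 per group, and every mouse had received an AAV9 vector through the tail vein before surgery. The sham group received control vector and sham surgery. The infarcted control group received control vector and ligation of the left anterior descending coronary artery, which causes a myocardial infarction (MI). The Irx3 group received an AAV9 vector carrying Irx3, an Iroquois homeobox transcription factor, and the same ligation. Tissue was taken 14 days after surgery in all 3 groups. The promoter in the vectors and the age and sex of the mice are not stated in the labels.

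Collagen chains are modified while they are still in the endoplasmic reticulum. Prolyl 4-hydroxylases, whose catalytic subunits include P4ha1 and P4ha3, hydroxylate proline and so stabilise the triple helix, lysyl hydroxylases such as Plod1 and Plod2 hydroxylate lysine, and Serpinh1 (Hsp47) is a chaperone that binds the folded procollagen helix. After secretion, the copper-dependent lysyl oxidases Lox and Loxl1 to Loxl4 oxidise lysine and hydroxylysine side chains, which then join neighbouring molecules. In the heart this machinery is known from fibroblasts, which lay down the scar that replaces lost muscle.

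The libraries held 13352604 to 19236721 counts, and levels are given as normalised read counts (CPM, read counts scaled to the size of the library). Irx3 itself stood at 25.9, 25.6, 25.9 and 20.5 CPM in the sham libraries, at 30.5, 27.3, 16.8 and 17.6 CPM after infarction with control vector, and at 314, 513, 285 and 462 CPM with Irx3 vector. All 4 Irx3 libraries lay above all others, 4.09 above the infarcted controls on the log2 scale (SE 0.25, n = 4 per group, edgeR adjusted p = 1.48e-06, two-sided exact permutation p = 0.0286, the smallest that 4 against 4 allows). The labels call the cell type cardiomyocytes, and the 8 cardiomyocyte markers summed to 86394 to 102933 CPM in the sham libraries. The 8 fibroblast markers were also present, at a summed 1873 to 2233 CPM in sham, 3636 to 8202 CPM after infarction with control vector and 2279 to 3660 CPM with Irx3 vector, so the tissue is treated as whole ventricle. Mitochondrially encoded genes took 4.5 to 8.22% of counts in sham, 0.926 to 5.64% in the infarcted controls and 10.4 to 19.0% in the Irx3 libraries. Fold changes between Irx3 vector and control vector fell with the GC content of the transcript (Spearman's rho -0.65 across 15186 genes, a description, since genes are not independent replicates), whereas infarction against sham showed a rho of 0.04. For that reason fold changes corrected for GC content are given beside the uncorrected ones.

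Infarction with control vector raised 9 of the 10 genes over sham and lowered none, against 26.3% of all genes tested that were called higher and 22.4% called lower (edgeR quasi-likelihood test, called where the Benjamini-Hochberg adjusted p across the whole table was below 0.05). The median log2 fold change of the 10 was 3.11, beside 0.01 over all genes. The 9 genes that rose also had every infarcted library above every sham library, which held for 24.5% of all genes in that direction. After GC correction all 10 were called higher, against 30.4% of all genes. Since the 10 genes were chosen with earlier results of these data known, these shares describe them and are no test of the group. In bulk tissue a rise in the number of cells that express a gene and more RNA per cell cannot be told apart.

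**Figure D1:**
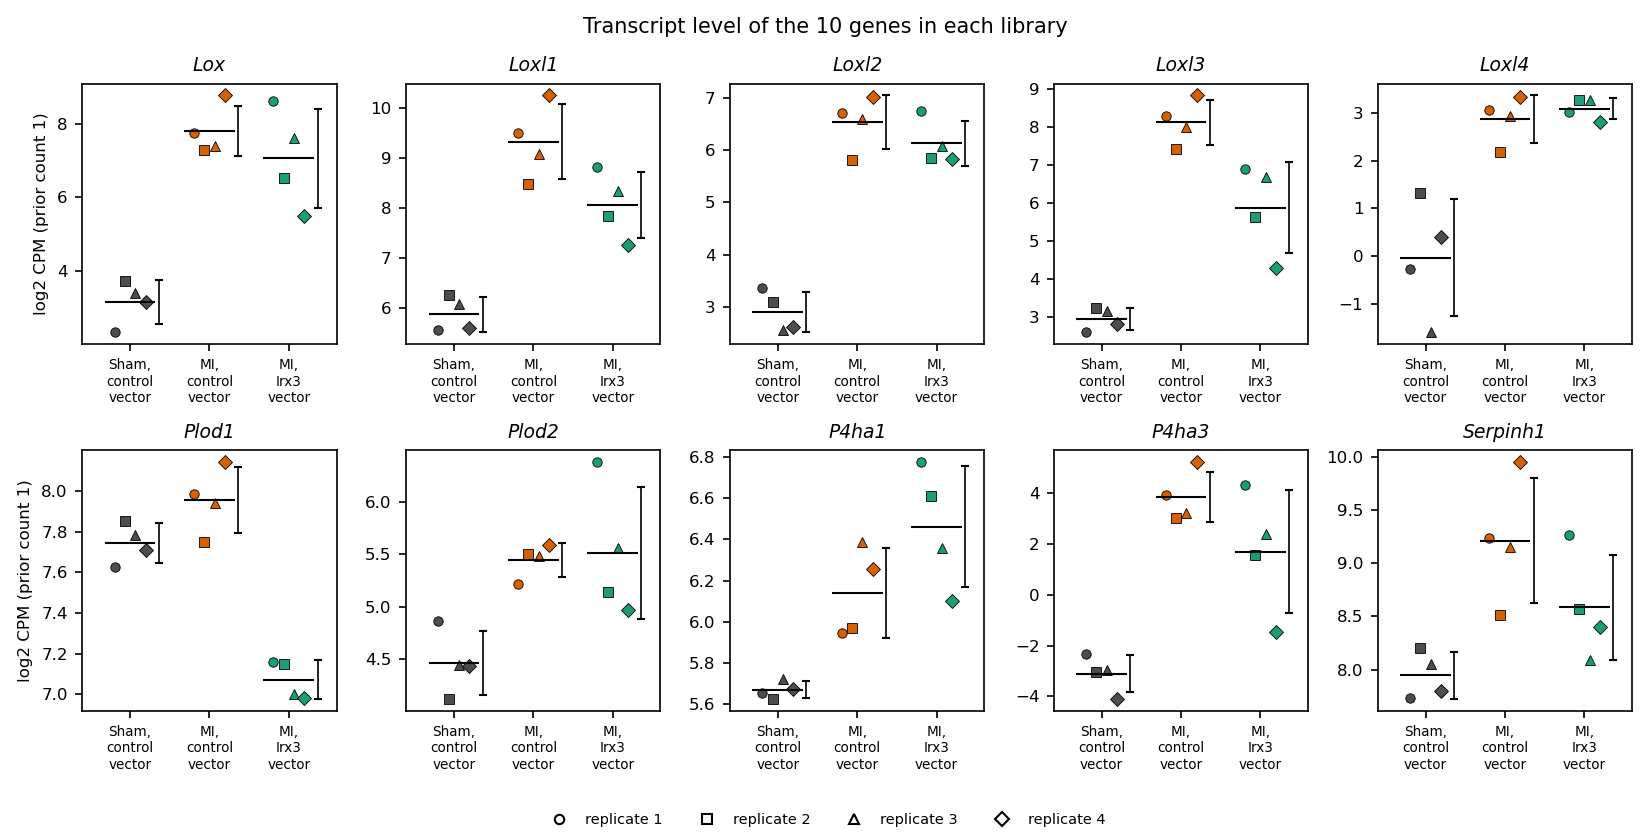
Level of each of the 10 genes in each library, as log2 CPM with a prior count of 1; bars are group means and whiskers the SD of 4 libraries, and the vertical scale differs between panels. Every infarcted library is above every sham library for the 5 lysyl oxidases, P4ha3, P4ha1 and Plod2. The narrowest gap is that of Plod2, 4.97 in replicate 4 of the Irx3 group against 4.86 in sham replicate 1. P4ha3 in replicate 4 of the Irx3 group rests on 4 reads. Plod1 is lower with Irx3 vector than in either control group.

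The 5 lysyl oxidases rose together after infarction. Loxl3, a lysyl oxidase with scavenger receptor domains, stood at 6.04, 9.42, 8.80 and 7.02 CPM in sham and at 310, 170, 254 and 454 CPM after infarction. The groups were far apart, and the difference of 5.24 on the log2 scale (SE 0.52, edgeR adjusted p = 2.24e-05) corresponds to 37.9-fold. Lox, the founding member of the family, stood at 4.98, 13.3, 10.4 and 8.76 CPM in sham and at 216, 157, 169 and 438 CPM after infarction. It rose by 4.71 on the log2 scale (SE 0.63, edgeR adjusted p = 1.08e-04), or 26.1-fold, with the fourth infarcted library well above the other three.

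Loxl1, known for its part in elastic fibre assembly, had 46.8, 76.1, 67.8 and 48.2 CPM in sham and 724, 356, 537 and 1217 CPM after infarction. Its log2 fold change was 3.57 (SE 0.41, edgeR adjusted p = 4.33e-05). Loxl2, which acts on the collagen IV of basement membranes as well as on fibrillar collagen, went from 10.2, 8.48, 5.87 and 6.05 CPM to 105, 56.4, 97.0 and 129 CPM. The difference was 3.66 on the log2 scale (SE 0.30, edgeR adjusted p = 1.05e-05), with the smallest standard error of the 5. Loxl4 remained a low transcript: 0.77, 2.45, 0.27 and 1.25 CPM in sham and 8.28, 4.45, 7.63 and 9.97 CPM after infarction, from 4 to 39 and 73 to 193 reads per library. It rose by 2.66 (SE 0.44, edgeR adjusted p = 3.61e-04), and its sham libraries varied 8.97-fold among themselves.

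The prolyl 4-hydroxylase subunits differed widely in size of response. P4ha3 was nearly absent from the sham ventricle, with 2, 1, 1 and 0 reads in the 4 libraries, and had 297, 131, 163 and 717 reads after infarction (15.3, 7.99, 9.28 and 37.0 CPM). The ratio of the groups' summed reads, corrected for library size, was 266, with a 95% counting interval of 104 to 978 that covers counting error only. The fitted change was called higher (edgeR adjusted p = 3.53e-04). P4ha1, the widely expressed subunit, was already present in sham at 50.3, 49.3, 52.8 and 51.0 CPM, the narrowest spread of the 10 genes, and reached 61.5, 62.5, 83.7 and 76.3 CPM. Its rise of 0.48 (SE 0.15, edgeR adjusted p = 0.0160) was the smallest of the 9 that were called, and it was not called without the third infarcted library (0.33, adjusted p = 0.103) or the fourth (0.38, adjusted p = 0.0692). P4ha2, the other catalytic subunit, averaged 96.3 ± 7.59 CPM in sham and 96.7 ± 8.79 CPM after infarction (SD, n = 4 each, log2 fold change 0.01, edgeR adjusted p = 0.972).

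The lysyl hydroxylases moved little by comparison. Plod2, which hydroxylates lysines of the collagen telopeptides, rose from 29.1, 17.4, 21.7 and 21.5 CPM to 37.1, 45.2, 44.6 and 47.9 CPM, by 0.96 on the log2 scale (SE 0.26, edgeR adjusted p = 0.00864). Plod1, which hydroxylates lysines of the helix, had 197, 231, 220 and 209.5 CPM in sham and 254, 215, 245 and 282 CPM after infarction. These groups overlapped, and the difference of 0.22 (95% interval -0.05 to 0.48, edgeR adjusted p = 0.148) passed the threshold only after GC correction (0.27, adjusted p = 0.0308). The chaperone gene Serpinh1 rose from 212, 295, 265 and 223 CPM to 603, 365, 567 and 989 CPM, by 1.34 on the log2 scale (SE 0.30, edgeR adjusted p = 0.00254).

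For P4ha1, P4ha3, Plod1 and Serpinh1 the 250 bases before the transcription start are shown because P4ha1 and P4ha3 encode alternative subunits of the same enzyme and differed widely in response, while Plod1 and Serpinh1 had the highest levels per length in sham. RefSeq gave promoters for 5 of the 10 genes on build GRCm38.p6, Loxl4 being the fifth. The sequences run 5′ to 3′ on the gene's strand, and capitals mark matches on either strand to ACGTG or GCGTG, the core bound by hypoxia-inducible factor (reverse strand CACGT or CACGC), or to CCAAT, the letters of the CCAAT box (reverse strand ATTGG).
P4ha1, chr10:59323046-59323295, plus strand: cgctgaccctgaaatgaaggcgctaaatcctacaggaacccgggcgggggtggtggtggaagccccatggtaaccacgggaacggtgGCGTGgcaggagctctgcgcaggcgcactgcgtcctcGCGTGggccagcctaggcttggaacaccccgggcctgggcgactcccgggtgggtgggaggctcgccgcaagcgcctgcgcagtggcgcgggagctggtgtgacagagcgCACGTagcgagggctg
P4ha3, chr7:100285270-100285519, plus strand: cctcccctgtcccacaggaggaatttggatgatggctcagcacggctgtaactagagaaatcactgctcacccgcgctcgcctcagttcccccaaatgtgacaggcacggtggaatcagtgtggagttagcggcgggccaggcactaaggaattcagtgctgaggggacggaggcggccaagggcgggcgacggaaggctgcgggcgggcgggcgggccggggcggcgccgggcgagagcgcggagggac
Plod1, chr4:147936777-147937026, minus strand: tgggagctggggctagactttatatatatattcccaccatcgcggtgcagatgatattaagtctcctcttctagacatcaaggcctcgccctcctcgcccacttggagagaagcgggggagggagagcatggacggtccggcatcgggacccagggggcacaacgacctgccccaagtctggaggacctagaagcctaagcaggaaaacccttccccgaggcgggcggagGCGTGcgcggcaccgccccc
Serpinh1, chr7:99353240-99353489, minus strand: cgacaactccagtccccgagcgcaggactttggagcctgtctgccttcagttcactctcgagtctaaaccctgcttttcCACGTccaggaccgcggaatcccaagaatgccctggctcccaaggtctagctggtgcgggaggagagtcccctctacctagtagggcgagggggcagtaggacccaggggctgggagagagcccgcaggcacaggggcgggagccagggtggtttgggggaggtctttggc
P4ha1 held 1 match to ACGTG, 16 bases before the start, and 2 to GCGTG, and P4ha3 held neither. Serpinh1 held 1 ACGTG and Plod1 1 GCGTG. None of these windows held CCAAT. Among 32851 RefSeq windows of this length, 16.6% held ACGTG, 28.2% GCGTG and 33.8% CCAAT. The core of the GC box, GGGCGG (reverse strand CCGCCC), was matched in each of them, 5 times in P4ha3 with 3 matches overlapping one another, 2 times in Plod1 and 1 time each in P4ha1 and Serpinh1. At least 1 match was held by 32.7% of all windows. These matches describe letters and not binding.

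Per kilobase of the longest transcript, the order of the 10 genes changed with infarction. In sham, Serpinh1 led at a mean of 109 CPM per kilobase, followed by Plod1 at 52.4, Loxl1 at 18.1, P4ha1 at 12.6 and Plod2 at 6.12. Lox at 1.97, Loxl3 at 1.91 and Loxl2 at 1.44 CPM per kilobase had overlapping libraries, and Loxl4 at 0.317 and P4ha3 at 0.028 came last. After infarction with control vector Serpinh1 at 278 ± 115 and Loxl1 at 215 ± 112 CPM per kilobase (SD, n = 4) lay within each other's spread. Serpinh1 was nonetheless above Loxl1 within each library. Loxl3 at 72.4, Plod1 at 60.8 and Lox at 51.7 CPM per kilobase came next by mean. Their ranges overlapped too, although Loxl3 was above Lox within each library. Loxl2 at 18.2, P4ha1 at 17.6, Plod2 at 11.9 and P4ha3 at 7.24 CPM per kilobase followed in order of their means, with libraries that overlapped between neighbours except P4ha1 and Plod2, and Loxl4 at 2.03 came last.

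Within the infarcted controls, 9 of the 10 genes were highest in replicate 4 and 8 were lowest in replicate 2. Cardiomyocyte markers ran the other way, with a summed 24683 CPM in replicate 4 and 57405 CPM in replicate 2. Within the Irx3 group, 9 of the 10 were highest in replicate 1 and 9 were lowest in replicate 4, where cardiomyocyte markers summed to 27572 and 51506 CPM. Replicate 3 was close to replicate 1 in these markers, at 27410 CPM, yet had 197 CPM of Lox against 390. It also had the lowest Serpinh1 of the group, at 273 CPM against 617 in replicate 1. After subtraction of group means, pairs of the 10 genes had correlations from -0.18 (Loxl4 with Plod2) to 0.94 (Lox with Loxl3) over the 12 libraries, and Loxl4 with P4ha1 (0.07) and Plod1 with Plod2 (0.04) were near 0. Infarct size is not stated in the labels. The part of tissue composition in these differences was not tested.

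**Figure D2:**
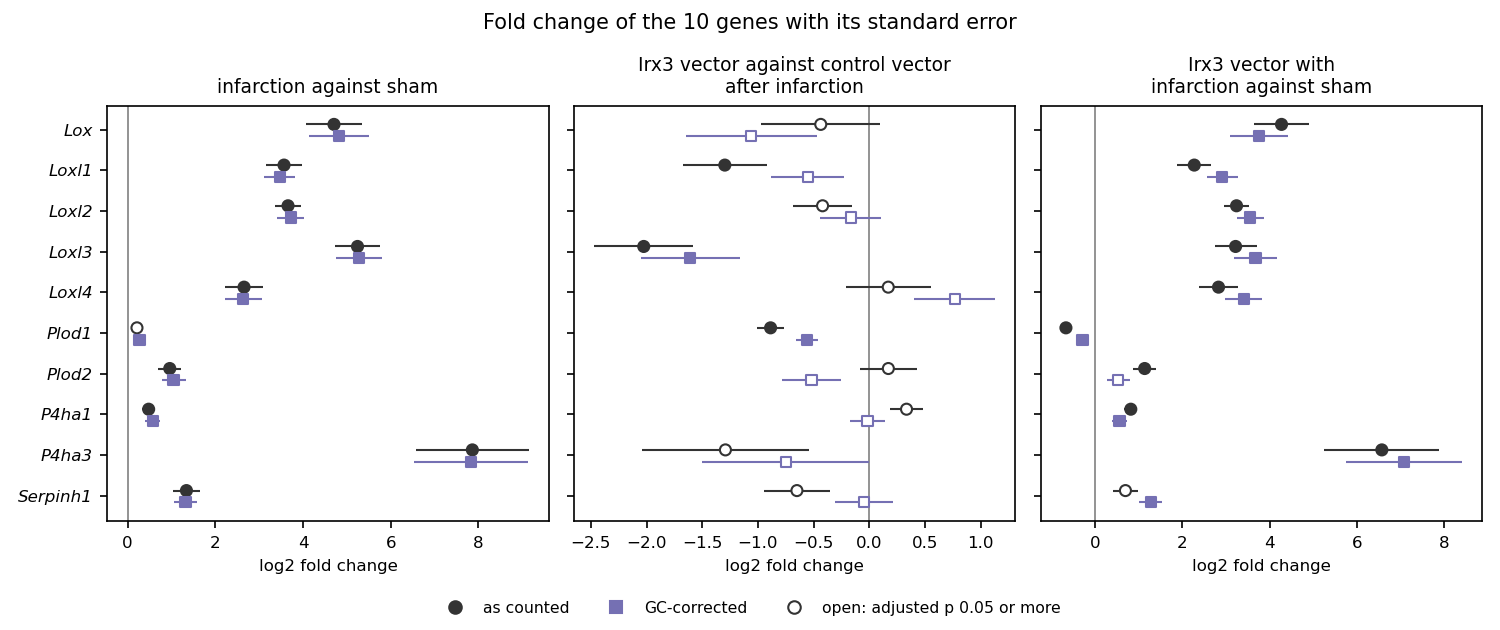
Log2 fold change of the 10 genes in the 3 comparisons, with bars of 1 SE; circles are as counted, squares after correction for GC content, and filled marks passed an adjusted p of 0.05. Loxl3 and Plod1 are lower with Irx3 vector by either reckoning, while Loxl1 passes the threshold only without the correction.

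Among infarcted hearts, Irx3 vector was accompanied by lower Loxl3, Plod1 and Loxl1, 3 of the 10 genes. None of the 10 was higher. Of all genes tested 24.1% were called lower and 25.2% higher, so the share among the 10 was close to the background. The median log2 fold change of the 10 was -0.54, beside 0.00 over all genes. With GC correction 2 of the 10 were called lower, against 13.2% of all genes, and none higher, against 14.2%. Loxl3 and Plod1 were also the only 2 whose Irx3 libraries all lay below the infarcted controls, which held for 18.9% of all genes.

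Loxl3 had 119, 49.8, 103 and 19.6 CPM with Irx3 vector, all below the lowest infarcted control library at 170 CPM. The log2 fold change was -2.03 (SE 0.45, 95% interval -3.03 to -1.02, edgeR adjusted p = 0.00236), and -1.61 after GC correction (adjusted p = 0.0187). In the gene models of build GRCm38, 535 exonic bases of Loxl3 (11.6%) overlap Htra2 on the opposite strand, and the labels do not say whether reads were counted by strand. Htra2 averaged 36.6 CPM in sham, 41.8 CPM after infarction and 22.2 CPM with Irx3 vector. Loxl3 averaged 7.82, 297 and 72.8 CPM in the same groups. Whether reads of Htra2 entered the counts of Loxl3 was not tested.

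Plod1 fell to 143, 142, 128 and 126 CPM with Irx3 vector, in a narrow band below both other groups. Its log2 fold change against the infarcted controls was -0.89 (SE 0.12, edgeR adjusted p = 1.06e-04), and -0.56 after GC correction (adjusted p = 0.00148). Plod1 had the lowest adjusted p of the 10 in this comparison, and a range of only 1.13-fold among the 4 Irx3 libraries. The 500 genes nearest to Plod1 in GC content (52.7%) had a median log2 fold change of -0.34.

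Loxl1 had 449, 228, 323 and 153 CPM with Irx3 vector, and the highest of these lay above the lowest infarcted control. It was called lower (-1.30, SE 0.38, edgeR adjusted p = 0.0117). Loxl1 is the most GC-rich of the 10 at 61.0%, and the 500 genes nearest to it in GC content had a median of -0.68. Corrected for GC content, the difference was -0.55 (SE 0.33, adjusted p = 0.224), and without the fourth library of both infarcted groups it was -0.70 (adjusted p = 0.0701).

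For the other 7 genes the groups overlapped. Lox ran from 44.7 to 390 CPM with Irx3 vector (390, 92.3, 197 and 44.7), the widest spread of any lysyl oxidase, and its difference of -0.44 had a 95% interval from -1.65 to 0.77 (edgeR adjusted p = 0.519). Loxl2 had 107, 57.4, 67.6 and 57.1 CPM (-0.42, 95% interval -1.02 to 0.18, adjusted p = 0.203). Loxl4 had 8.05, 9.58, 9.59 and 6.92 CPM, near the infarcted controls (0.17, 95% interval -0.69 to 1.03, adjusted p = 0.735). P4ha3 had 19.7, 2.87, 5.23 and 0.30 CPM (399, 60, 96 and 4 reads), a 64.8-fold spread within the group. Its difference of -1.29 was not called (95% interval -2.99 to 0.41, adjusted p = 0.170).

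P4ha1 had 110, 97.5, 82.1 and 68.6 CPM with Irx3 vector and pointed upward without passing the threshold (0.33, 95% interval 0.00 to 0.67, edgeR adjusted p = 0.0747). It was called higher without the fourth Irx3 library (0.44, adjusted p = 0.0189) or the third infarcted control (0.43, adjusted p = 0.0459), and stood at -0.016 after GC correction. Plod2 had 82.9, 35.2, 47.2 and 31.2 CPM (0.17, 95% interval -0.41 to 0.76, adjusted p = 0.607), and the sign turned without the first library, which was the highest (-0.20), and after GC correction (-0.52, adjusted p = 0.167). Serpinh1 had 617, 381, 273 and 338 CPM (-0.65, 95% interval -1.32 to 0.02, adjusted p = 0.0824), and -0.05 after GC correction. Without the first Irx3 library 6 genes were called lower in place of 3, with Loxl2 (-0.67, adjusted p = 0.0434), P4ha3 (-2.60, adjusted p = 0.00914) and Serpinh1 (-0.93, adjusted p = 0.0158) added. That library was the highest of its group for 9 of the 10 genes, so leaving it out lowers their Irx3 means. With single libraries left out, 6765 to 8353 of all genes were called in this comparison, counting both directions. The share of all genes called lower without the first Irx3 library is not given here, so the 6 have no background of their own. With all libraries it was 24.1%. Serpinh1 was also called without the second infarcted control (-0.84, adjusted p = 0.0233) and in the DESeq2 Wald test (-0.69, adjusted p = 0.0430).

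**Figure D3:**
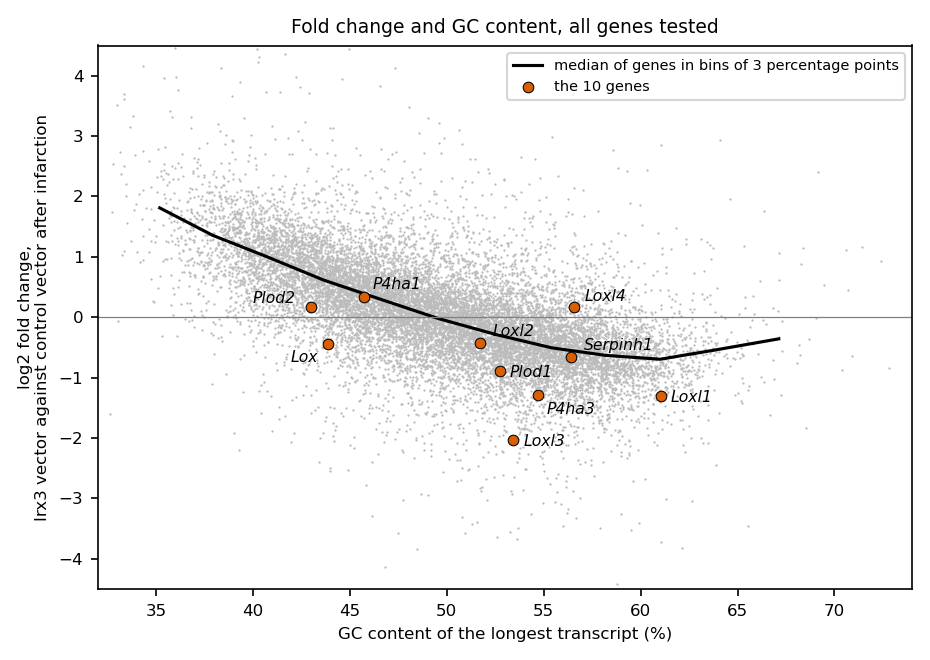
Log2 fold change between Irx3 vector and control vector after infarction against the GC content of the longest transcript, for 15151 genes (35 lie outside the axes); the line joins medians of genes in bins and filled points are the 10 genes. AT-rich genes tend to lie above 0 and GC-rich genes below it, and 9 of the 10 genes lie below the median of the genes nearest to them in GC content, Loxl4 being the exception. Serpinh1 and P4ha1 lie close to that median, and the count was not tested.

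Set against the 500 genes nearest in GC content, 9 of the 10 genes lay below the median of those genes and 1, Loxl4, above it. By construction, about as many genes lie below such a median as above it. Many pairs of the 10 also varied together within groups, so the count is a description and was not tested. Lox (GC content 43.9%) and Plod2 (43.0%) are AT-rich, and the 500 genes nearest to each had medians of 0.59 and 0.69, above the values of -0.44 and 0.17 of the genes themselves. Loxl4 (56.6%) stood at 0.17 where its 500 nearest genes had a median of -0.59. Serpinh1 (56.4%) and P4ha1 (45.7%) lay close to the medians of theirs, at -0.65 against -0.58 and 0.33 against 0.38.

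Against sham, the Irx3 group still had 8 of the 10 genes called higher and 1, Plod1, called lower, while 35.2% of all genes were higher and 27.7% lower. This comparison shares its sham libraries with the comparison of infarction against sham and its Irx3 libraries with the comparison of the vectors, so the values are set side by side only. Loxl3 stood 3.22 above sham (SE 0.48, edgeR adjusted p = 9.15e-05) with Irx3 vector and 5.24 with control vector. For Lox the values were 4.27 and 4.71, for Loxl2 3.24 and 3.66, for Loxl1 2.27 and 3.57, and for Loxl4 2.83 and 2.66. P4ha3 had a ratio of summed reads of 114 over sham with Irx3 vector (95% counting interval 44.2 to 419), beside 266 with control vector.

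P4ha1 was 0.82 above sham with Irx3 vector (edgeR adjusted p = 3.87e-04) and Plod2 1.13 above it (adjusted p = 0.00224), though Plod2 was not called after GC correction (0.53, adjusted p = 0.114). Serpinh1 missed the threshold (0.69, adjusted p = 0.0546), and was called after GC correction (1.27, adjusted p = 0.00150) and without the third Irx3 library (0.80, adjusted p = 0.0401). After GC correction 8 of the 10 were again called higher, against 33% of all genes. Plod1 was 0.67 below sham (log2 fold change -0.67, SE 0.12, adjusted p = 3.17e-04), or -0.29 after GC correction (adjusted p = 0.0231), although its infarcted control libraries reached above the sham range.

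Because the substrate rose too, the reads of each gene were also set against 1000 reads of Col1a1, Col1a2 and Col3a1, the chains of the main fibrillar collagens, in the same library. After infarction the ratio of 7 of the 10 genes lay below every sham library, as it did for 96.1% of all genes, since these 3 chains rose by 5.13 to 6.02 on the log2 scale. Serpinh1 went from 550, 600, 672 and 683 reads per 1000 collagen reads in sham to 39.0, 32.3, 36.4 and 29.8 after infarction. Lox and Loxl3 came closest to keeping pace with collagen. Lox had 12.9, 27.0, 26.4 and 26.9 in sham and 13.9, 13.8, 10.9 and 13.2 after infarction, and Loxl3 had 15.6, 19.2, 22.3 and 21.6 in sham and 20.01, 14.99, 16.3 and 13.7 after infarction, so that both overlapped their sham range. For Lox that overlap rests on the first sham library, without which the sham range was 26.4 to 27.0. P4ha3 alone among the 10 had a higher ratio in every infarcted library, 0.596 to 1.12 against 0 to 0.364 in sham, a rise shown by 0.28% of all genes. That sham ratio rests on 4 reads in all.

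With Irx3 vector, Loxl3 had fewer reads per 1000 collagen reads than any infarcted control, at 5.48, 9.40, 10.2 and 7.99, a fall shared by 0.381% of all genes. Lox had more, at 18.04, 17.4, 19.4 and 18.2, as did 9.9% of all genes, and the other 8 genes overlapped. The Lox ratio lay within this narrow range although Lox itself differed 8.74-fold among the 4 Irx3 libraries. After GC correction Lox stood at -1.06 beside -0.32 for Col1a1, -0.53 for Col1a2 and -0.36 for Col3a1, so that the order of Lox and collagen turned, whereas Loxl3 at -1.61 was below all 3 chains by either reckoning. These ratios were compared by their ranges and were not tested.

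**Figure D4:**
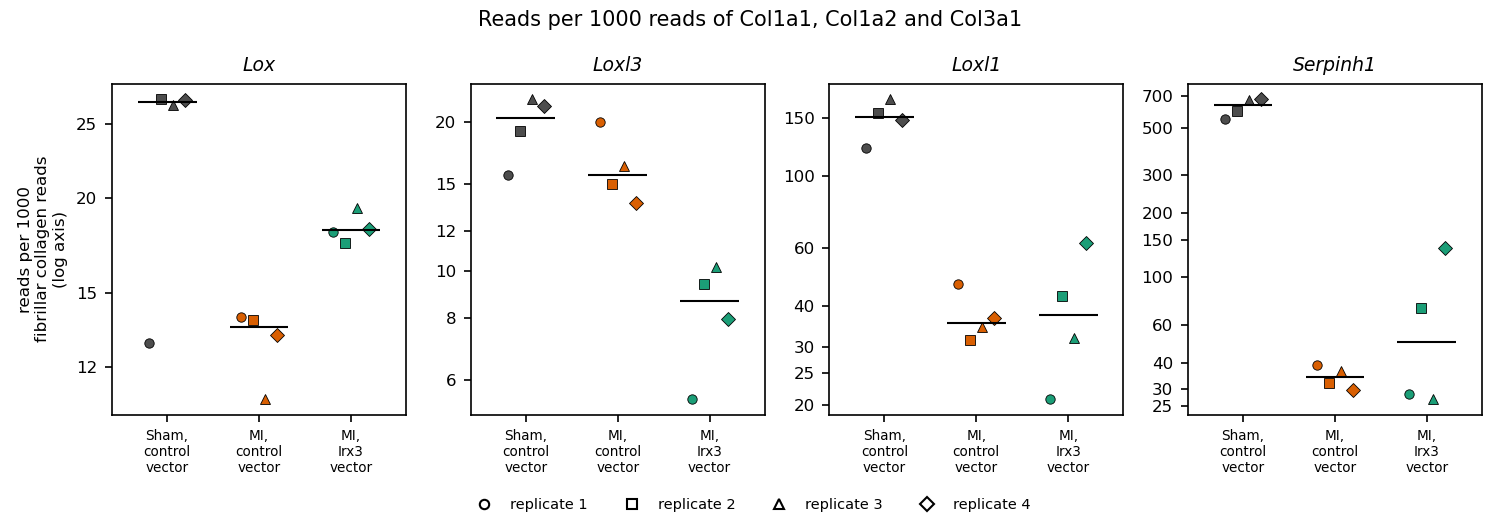
Reads of Lox, Loxl3, Loxl1 and Serpinh1 per 1000 reads of Col1a1, Col1a2 and Col3a1 in each library, on log axes; bars are group medians. Lox sits at 17.4 to 19.4 in the Irx3 group against 10.9 to 13.9 in the infarcted controls, Loxl3 falls to 5.48 to 10.2, and Serpinh1 drops from 550 or more in sham to 39.0 or less after infarction with control vector.

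The balance between some related enzymes differed between the groups as well. Per kilobase, the ratio of Lox to Loxl3 was 0.714, 1.22, 1.03 and 1.08 in sham, 0.602, 0.798, 0.577 and 0.834 in the infarcted controls, and 2.84, 1.60, 1.65 and 1.97 with Irx3 vector. Every Irx3 library thus held more Lox than Loxl3, and every infarcted control held less. The ratio of Plod2 to Plod1 was 0.0842 to 0.165 in sham, 0.164 to 0.235 in the infarcted controls and 0.277 to 0.650 with Irx3 vector. Both pairs combine an AT-rich with a more GC-rich transcript. After GC correction Plod2 and Plod1 differed from the infarcted controls by nearly the same amount, -0.52 and -0.56, while Lox at -1.06 and Loxl3 at -1.61 were less far apart than before. Other pairs overlapped between infarcted controls and Irx3 vector. Lox to Loxl1 was 0.207 to 0.306 and 0.203 to 0.605, and P4ha3 to P4ha1 was 0.187 to 0.817 and 0.00745 to 0.303. Loxl2 to Loxl3 was apart, at 0.220 to 0.295 and 0.506 to 2.24. These ranges were not tested, and no share over other pairs of genes was taken.

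The wider collagen pathway was read from lists of genes that exclude the 10. Beside these lists, 26.3% of all genes were called higher and 22.4% lower after infarction. With Irx3 vector 25.2% of all genes were higher and 24.1% lower than in the infarcted controls, and 14.2% and 13.2% after GC correction. The lists are small and were not tested as sets. Of 16 other genes for hydroxylation and folding, 11 were called higher and 1 lower after infarction (median log2 fold change 0.79). The largest rises were those of the prolyl 3-hydroxylase genes P3h3 (3.03, SE 0.39) and P3h2 (1.79, SE 0.31) and of Crtap (1.70, SE 0.25), which encodes a partner of prolyl 3-hydroxylase. P3h4 was the gene that fell (-0.48, edgeR adjusted p = 0.0232). With Irx3 vector 9 of the 16 were lower and 3 higher than in the infarcted controls, and 4 lower and 1 higher after GC correction. P3h3 was lower (-1.57), but not after GC correction (-0.83, adjusted p = 0.0762). Plod3, the third lysyl hydroxylase, was lower by both (-1.22, and -0.57 after correction, adjusted p = 0.0424). P4ha2, with a level of 50.3 ± 4.91 CPM (SD, n = 4), fell by 0.94 against the infarcted controls (edgeR adjusted p = 5.39e-05) and by 0.67 after GC correction. Ppib, the cyclophilin of the prolyl 3-hydroxylase complex, rose by 0.85, and by 0.94 after correction.

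Of 10 genes for propeptide processing and other crosslinking, 6 rose after infarction, led by the procollagen N-proteinase gene Adamts2 (4.07, SE 0.46), the proteinase enhancer gene Pcolce (2.34, SE 0.26) and Bmp1 (2.29, SE 0.38), whose product also activates lysyl oxidase. Tll2 fell, from a mean of 1.62 to 0.204 CPM. With Irx3 vector 6 of the 10 were lower and none higher, beside 24.1% and 25.2% of all genes. Of these 6, 2 were lower after GC correction, Pcolce2 (-1.30) and Tgm2 (-0.93), beside 13.2% of all genes. Tgm2, transglutaminase 2, forms another kind of crosslink, and went from 821 ± 115 CPM in sham to 970.3 ± 145 CPM after infarction and 336 ± 45 CPM with Irx3 vector (SD, n = 4 each). It did not pass the threshold for infarction against sham (0.24, adjusted p = 0.269) and fell by 1.53 with Irx3 vector (edgeR adjusted p = 4.99e-05).

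All 6 matrix partners of the lysyl oxidases rose after infarction, led by Fmod (8.87, SE 0.81), Postn (5.88, SE 0.44) and Fn1 (4.83, SE 0.79). With Irx3 vector 4 of the 6 were lower, Fmod, Fbln5, Sparc and Efemp2, and after GC correction also 4, with Postn in place of Efemp2. The small leucine-rich proteoglycan gene Fmod, whose product binds lysyl oxidase, had the largest fall (-2.33, SE 0.57). Of 11 fibrillar collagen chains 10 rose after infarction (median 5.13), Col11a2 being the exception, beside 26.3% of all genes. With Irx3 vector 1 was lower, again Col11a2 (-1.01, adjusted p = 0.0100), beside 24.1% of all genes. After GC correction Col11a2 was not called and Col5a3 was called higher (1.03, adjusted p = 0.0304).

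Of 5 genes of procollagen export, 2 rose after infarction (Creb3l1, 1.24, and Sec24d, 0.73) and Mia2 fell (-0.91), beside 26.3% and 22.4% of all genes. With Irx3 vector Mia2 (1.06), Creb3l1 (0.94) and Sec23a (0.78) were higher and Sec24d lower (-0.47). After GC correction Creb3l1, a transcription factor of collagen-secreting cells, was still called higher (1.66, adjusted p = 0.00209), and so was Mia2 (0.77, adjusted p = 0.00231). Sec23a (0.023, adjusted p = 0.869) and Sec24d (-0.32, adjusted p = 0.189) were not. Of 5 tested genes of copper supply, Atox1 rose (0.55) and Slc31a2 fell (-0.53) after infarction, close to the shares of all genes. With Irx3 vector Ccs, Atox1 and Slc31a2 were lower and Slc31a1 higher (0.37). After GC correction Ccs (-0.39) and Slc31a2 (-0.36) were still called lower, and Atp7a was added (-0.73, adjusted p = 0.0351). Atox1 was no longer called (-0.27, adjusted p = 0.116), and Slc31a1 changed sign and was not called (-0.22, adjusted p = 0.109). Of 20 known targets of hypoxia-inducible factor, a list that also holds P4ha2, 6 rose and 5 fell after infarction, beside 26.3% and 22.4% of all genes. With Irx3 vector 2 were higher and 6 lower, beside 25.2% and 24.1% of all genes, and after GC correction 2 of 19 were higher and 8 lower. The largest rise was that of Pfkfb4 after infarction (1.75), and the largest fall that of Ddit4 with Irx3 vector (-3.49, SE 0.21, and -2.86 after GC correction).

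**Figure D5:**
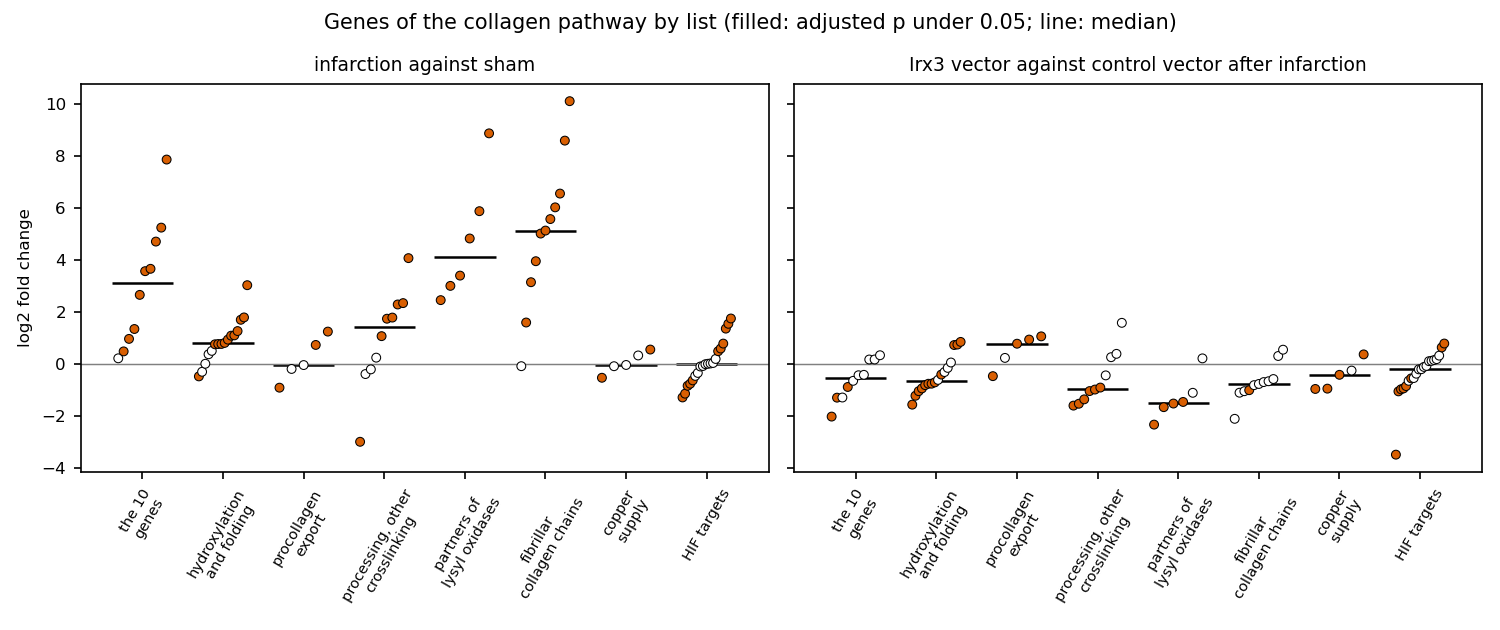
Log2 fold change of each tested gene of the 7 pathway lists beside the 10 genes, for infarction against sham (left) and Irx3 vector against control vector after infarction (right); filled points passed an adjusted p of 0.05 and lines are medians. After infarction the fibrillar chains have the highest median, 5.13, and the 10 genes spread from 0.22 to 7.86.

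Cell type markers moved beside these genes. After infarction all 8 fibroblast markers, all 8 macrophage markers and all 5 markers of matrifibrocytes, the fibroblasts of mature scar, were called higher, and 6 of 8 cardiomyocyte markers lower. With Irx3 vector all 5 matrifibrocyte markers, 4 of 8 fibroblast markers and 4 of 8 macrophage markers were lower than in the infarcted controls, where 24.1% of all genes were. After GC correction these counts were 5 of 5, 5 of 8 and 0 of 8, with 13.2% of all genes lower. Of 8 endothelial markers 5 were lower and 3 higher, and 3 lower and 1 higher after correction. The matrifibrocyte markers summed to 11.3 to 21.9 CPM in sham, 2098 to 9831 CPM in the infarcted controls and 32.2 to 880 CPM with Irx3 vector, without overlap. The 5 markers of activated fibroblasts overlapped, at 1017 to 1778 CPM and 732 to 2404 CPM. Fmod, a matrifibrocyte marker, and Postn, a marker of activated fibroblasts, were also counted above among the partners of the lysyl oxidases. No marker of these lists was at 0 in every library of an infarcted group. Their part in the differences of the 10 genes was not tested.

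The genes whose pattern over the 12 libraries was most like each of the 10 were found by Pearson's r of log2 CPM among tested genes whose mean log2 CPM was 2 or more. These values describe libraries that share their group differences and carry no p. Lox was most like Fbn1 (0.993), Runx1 (0.992) and Ncf4 (0.991), and Loxl1 most like Pmepa1 (0.997), B4galnt1 (0.993) and Igfbp7 (0.993). Loxl2 was closest to Kdelr3 (0.992), F2r (0.991) and Col12a1 (0.988). Loxl3 was closest to Dok1 (0.998), its neighbour in the order of RefSeq genes, and to Comp (0.996) and Pdgfrl (0.995). P4ha3 followed Slc7a2 (0.993), Xylt1 (0.991) and Creb3l2 (0.990).

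The remaining genes had other companions. Plod1 was most like Csnk1d (0.994), Por (0.990) and Spindoc (0.986), and Serpinh1 most like Sec61b (0.977), Exoc3l2 (0.973) and Ptgfrn (0.963). Plod2 followed Cdk14 (0.966), Gpr137b (0.959) and Lipa (0.957), P4ha1 followed Pcnx4 (0.959), Hacd2 (0.950) and Sel1l (0.945), and Loxl4 followed Ccdc136 (0.963), Ankrd1 (0.958) and Carhsp1 (0.955). The matrifibrocyte marker Comp appears beside Loxl3, after Dok1, and no other matrifibrocyte marker is among these companions. Loxl3 and Comp share large differences between the groups, and what their likeness reflects was not tested.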

How the data were processed

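The deposited values are raw read counts for each gene in each library, made by the authors on GRCm39 (mm39) after trimming with fastp, per the submitters' processing notes. Polyadenylated RNA was sequenced, per the labels' protocols. Aligner, counting tool, strand setting and annotation are not stated. All numeric columns belonged to a sample, each of the 10 genes had 1 row, and within a group no libraries were duplicates.

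Counts were tested with the quasi-likelihood F test of edgeR 4.0.16 (R 4.3.3) with robust estimation, TMM normalization and filterByExpr, using 1 term per group across 12 libraries, 9 residual degrees of freedom and 3 contrasts. Calls needed an adjusted p (Benjamini-Hochberg, 15742 genes) below 0.05. The SE of a log2 fold change is its size divided by the root of F. The 95% interval of a log2 fold change is that SE times the t quantile at 9 degrees of freedom, to either side. The test itself also draws on degrees of freedom shared across genes, so these intervals are wider than its p values imply. CPM use the TMM factors, and levels per kilobase and GC content use the longest GENCODE M21 transcript (GRCm38), since no GRCm39 annotation was used here. The GC correction is an offset per library from a natural spline (6 degrees of freedom, 3 rounds, leaving out residuals beyond 2.5 median absolute deviations). Precision rests on 4 mice per group. The code was tested on simulated data.

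The members, the lists and the GC correction were chosen with earlier results of these data known. Named are Irx3, the 10 genes, per list and contrast up to 3 called genes with the largest rise and 3 with the largest fall plus genes needed to account for a list, and the 3 genes most like each of the 10. Alternatives were RLE or upper-quartile normalization, the Wald test of DESeq2 1.42.0, 2 other filters (none, or a CPM of 1 or more in 4 libraries), a fit to the pair of groups alone, removal of mitochondrial genes, a block for replicate number, GC correction with and without that block, glmTreat against a fold change of 1.5, and each library left out. Replicate 4 of both infarcted groups was also left out together, and with GC correction as an addition made after seeing the data.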

Additional observations from a re-analysis of the deposited data

Results flagged for a closer look

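Among 63 sets of 4 libraries examined, made of the CPM of the 10 genes and Irx3 and of the reads of the 10 genes per 1000 fibrillar collagen reads, 2 held a library far from the others by Dixon's criterion, and chance flags about 1 in 20. Sham replicate 4 had 20.5 CPM of Irx3, where the other 3 sham libraries had 25.6 to 25.9 (gap 0.947 of the range). Sham replicate 1 had 12.9 reads of Lox per 1000 reads of Col1a1, Col1a2 and Col3a1, where the other 3 had 26.4 to 27.0 (gap 0.963 of the range), and it alone brought the Lox ratio of sham into the range of the infarcted controls, 10.9 to 13.9.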

How the results depend on the processing

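Infarction against sham had 7662 genes called, 3689 with glmTreat against a fold change of 1.5, and Irx3 vector with infarction against sham had 9904, 5535 with glmTreat. Irx3 vector against control vector had 7760 genes called, 4151 with GC correction, 2963 with GC correction and the replicate block, 2787 with glmTreat, and 3917 with GC correction and without replicate 4 of both infarcted groups. Of its 7530 calls that could be GC-corrected, 2924 kept their call and direction. With single libraries left out, 3 to 6 of the 10 genes and 6765 to 8353 of all genes were called in that comparison. All 12 changes of sign among the 10 genes were in it and concerned differences that were not called. Plod2 turned to -0.52 with GC correction, -0.62 with GC correction and block and -0.22 with GC correction without both of these libraries, and ran from -0.20 to 0.33 with single libraries left out. P4ha1 turned to -0.016 with GC correction and -0.021 with GC correction and block. Loxl4 ran from -0.014 to 0.34 and Lox from -1.14 to 0.024 with single libraries left out, and Lox stood at 0.32 without both of these libraries. With GC correction and without both of these libraries Loxl2 stood at 0.10, P4ha3 at 0.24 and Serpinh1 at 0.25. The uncalled difference of Irx3 itself between infarction and sham, -0.09, turned to 0.025 without replicate 4 of both infarcted groups, and to 0.051 there with GC correction. The cause was not tested. Under alternatives, 204 of 210 log2 fold changes of the 10 genes for infarction, 184 of 210 for the vectors and 196 of 209 for Irx3 vector against sham kept their direction and their side of the threshold. Against a fold change of 1.5, the calls of Plod2 (adjusted p = 0.0980) and P4ha1 (0.874) after infarction and of Loxl1 with Irx3 vector (0.0680) were lost.

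With the replicate block 6624, 6679 and 9077 genes and 9, 3 and 9 of the 10 were called in the 3 comparisons. The replicate numbers do not show a pairing, since 0 of 12 libraries correlated best with their own number (r -0.60 to 0.18). Genes with few reads, P4ha3 and Loxl4 in sham, are limited by depth.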
